A study of Homo sapiens with 8 samples.

Results

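The genes ACTL8, CHSY1, ZNF239, PTGER2, DACT2 and MARVELD1 were lower in both libraries of A549 cells depleted of YWHAG than in both scramble siRNA libraries. The 6 were picked from 66206 rows of the deposited expression table by those same YWHAG values, so their levels in the siRNA libraries are given as a description and no test of them is reported. Their levels after knockdown of LY6K-AS, a long non-coding RNA antisense to LY6K, were not used to choose them and were tested. A549 is a human lung adenocarcinoma cell line. Its RNA was sequenced in 8 libraries, 2 in each of 4 groups. Cells received 25 pmol of a locked nucleic acid (LNA) gapmer against LY6K-AS, 25 pmol of a scramble LNA gapmer, 40 pmol of an siRNA against YWHAG or 40 pmol of a scramble siRNA, all with the transfection reagent RNA-iMAX. Gapmers are antisense oligonucleotides with a DNA core through which RNase H cuts the target RNA. The labels name no further allele or agent, and every group had been transfected. The knockdown libraries are titled LNA1 and LNA3, and si1 and si2, so each may carry its own oligonucleotide, which the labels do not settle. Nor do they tell whether the 2 libraries of a group are separate cultures, and p-values cover the spread between libraries alone, possibly a technical one. In these bulk samples, fewer cells of a kind and less RNA per cell cannot be told apart.

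YWHAG encodes 14-3-3 gamma, an adaptor that binds phosphorylated serine and threonine motifs and so affects where its partner proteins sit and how active they are. The 6 genes belong to separate pathways. PTGER2 is the EP2 receptor, which prostaglandin E2, made from arachidonic acid by cyclooxygenases and prostaglandin E synthases, engages to raise cyclic AMP. CHSY1 is a chondroitin sulfate synthase that lengthens the sugar chains of proteoglycans. DACT2 belongs to a family of proteins that bind Dishevelled, the cytoplasmic relay of Wnt signalling. MARVELD1 carries the MARVEL domain, a membrane-spanning module also found in the tight junction protein occludin. ACTL8 is an actin-like protein counted among the cancer-testis genes, which are active in testis and in some tumours, and ZNF239 is a zinc finger protein.

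The genes lie on 5 chromosomes. In hg38, with the gene models of GENCODE 29, ACTL8 (ENSG00000117148.7) is at chr1:17755313-17827063 on the plus strand and CHSY1 (ENSG00000131873.5) at chr15:101175723-101251932 on the minus strand. ZNF239 (ENSG00000196793.13) is at chr10:43556344-43574618 on the minus strand and MARVELD1 (ENSG00000155254.12) at chr10:97713173-97718152 on the plus strand. PTGER2 (ENSG00000125384.6) is at chr14:52314305-52328606 on the plus strand and DACT2 (ENSG00000164488.11) at chr6:168292830-168319754 on the minus strand. All 6 are annotated as protein-coding, and values refer to reads over the whole gene. The identifier of CHSY1 carries another version in GENCODE 29 than in the tables. An unnamed sense intronic RNA, AL606970.1, lies inside DACT2 on the same strand. Its level of 0.907 ± 0.323 RPKM after YWHAG knockdown overlapped the 0.731 ± 0.00820 RPKM with scramble siRNA (SD, n = 2 each).

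All 6 promoters were found in the RefSeq table for GRCh38.p14. Because the genes were lower together, the 250 bases before each RefSeq start were searched on both strands for the letters of 6 motifs. Those of ACTL8, CHSY1, ZNF239 and PTGER2 are shown, the first 3 for their E-box or AP-1 letters and PTGER2 as an example of the windows with GC boxes only. They run 5′ to 3′ on the strand of the gene and end at the base before the start, with every match in capitals. ACTL8 and CHSY1 both carry CACGTG, an E-box, close to the start. ZNF239 alone has TGACTCA, an AP-1 site, and PTGER2, like DACT2 and MARVELD1, has GC boxes only. The windows are chr1:17755083-17755332 (plus strand), chr15:101252049-101252298 (minus strand), chr10:43574617-43574866 (minus strand) and chr14:52314062-52314311 (plus strand).
ACTL8: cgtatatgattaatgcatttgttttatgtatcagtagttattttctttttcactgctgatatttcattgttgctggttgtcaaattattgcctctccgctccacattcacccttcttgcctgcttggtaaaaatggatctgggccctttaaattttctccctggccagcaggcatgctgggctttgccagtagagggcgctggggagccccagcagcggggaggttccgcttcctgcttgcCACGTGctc
CHSY1: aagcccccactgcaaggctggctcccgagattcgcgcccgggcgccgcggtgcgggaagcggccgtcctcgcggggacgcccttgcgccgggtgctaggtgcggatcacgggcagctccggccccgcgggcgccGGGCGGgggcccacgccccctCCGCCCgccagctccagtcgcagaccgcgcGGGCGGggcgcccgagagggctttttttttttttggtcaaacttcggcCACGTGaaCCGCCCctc
ZNF239: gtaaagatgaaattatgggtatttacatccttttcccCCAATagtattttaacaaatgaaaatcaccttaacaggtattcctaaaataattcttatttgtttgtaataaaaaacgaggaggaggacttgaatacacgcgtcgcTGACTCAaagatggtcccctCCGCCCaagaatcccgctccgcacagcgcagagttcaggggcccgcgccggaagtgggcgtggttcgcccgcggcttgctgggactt
PTGER2: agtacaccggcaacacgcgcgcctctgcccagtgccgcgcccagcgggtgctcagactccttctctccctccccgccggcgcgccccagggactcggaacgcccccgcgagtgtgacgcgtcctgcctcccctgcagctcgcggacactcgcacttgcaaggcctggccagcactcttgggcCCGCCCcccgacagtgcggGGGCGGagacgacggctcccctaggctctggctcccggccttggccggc

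The E-box lay 9 to 4 bases before the RefSeq start in ACTL8 and 17 to 12 bases before it in CHSY1. RefSeq starts differ from the gene coordinates given above. The ACTL8 window ends at 17755332, past the gene start of 17755313 there, so its E-box lies inside that gene model. The MARVELD1 window, 97713480-97713729, lies wholly inside its gene model, which starts at 97713173. The windows of PTGER2 and ZNF239 overlap their gene models by a few bases, and those of CHSY1 and DACT2 lie outside. Among all 35116 promoters of the table, 6.34% held CACGTG within the 250 bases. The AP-1 letters of ZNF239 lay 107 to 101 bases before the start, and 4.20% of promoters held them. The GC box, GGGCGG, occurred 4 times in CHSY1, 3 times in DACT2, 2 times in PTGER2 and once each in ZNF239 and MARVELD1, and 42.6% of promoters held at least 1. ZNF239 also held CCAAT, as did 32.0% of promoters. None of the 6 windows held TATAAA, present in 10.7% of promoters, or the cyclic AMP response element TGACGTCA, present in 1.65%. No motif was present in all 6. Base composition also differed. The GC content was 48.4% in ACTL8 and 47.2% in ZNF239, and it was 74.8% in CHSY1, 74.0% in PTGER2, 73.2% in DACT2 and 68.8% in MARVELD1, against a median of 58% over all promoters.

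The libraries held 26.2 to 34.6 M reads (M, 1e6 reads) behind the normalization. Levels are reads per kilobase of merged exons, scaled to library size (RPKM), and changes are differences of mean log2(RPKM + 1), knockdown minus its own scramble control, a scale that understates the change of genes with low levels. YWHAG itself had 13.5 and 4.91 RPKM in its knockdown libraries, against 163 and 158 RPKM with scramble siRNA, a log2 change of -4.12 ± 0.43 (SE). LNCOC1 (ENSG00000253741.1), annotated antisense to LY6K, gave 3 and 8 reads after LY6K-AS knockdown, against 34 and 17 with scramble LNA. Of the A549 and epithelial markers, 10 of 14 reached the tested range. The summed level of all 14 was 4617 and 4941 RPKM after YWHAG knockdown, against 4147 and 4074 RPKM with scramble siRNA, and 4079 and 3973 RPKM after LY6K-AS knockdown, against 3988 and 3860 RPKM with scramble LNA. CDH1, epithelial cadherin, had 10.9 and 13.5 RPKM after YWHAG knockdown, against 4.63 and 4.42 RPKM with scramble siRNA, a log2 change of 1.25 ± 0.15 (SE, limma adjusted p = 0.130). Of the 10, 6 were higher and 4 lower after YWHAG knockdown, and EPCAM, another epithelial adhesion gene, was among the lower ones, with 4.39 and 7.20 RPKM against 9.04 and 10.6 RPKM (log2 change -0.70 ± 0.24, SE, limma adjusted p = 0.274), as were AKR1C1 at -0.36 and NQO1 at -0.33. The 4 below it in both tables were the lung markers SFTPA1, SFTPB, SFTPC and NKX2-1. No endothelial marker of 6, and 1 gene each of 7 fibroblast and 8 immune markers, did so. Summed levels after YWHAG knockdown were 2.34 and 1.09 RPKM for fibroblast and 1.63 and 0.650 RPKM for immune markers, against 2.53 and 2.70 RPKM and 2.19 and 2.93 RPKM with scramble siRNA. Their part in the lower levels of the 6 genes was not tested.

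After YWHAG knockdown ACTL8 showed the widest separation of the 6. It had 0.435 and 0.413 RPKM in the YWHAG knockdown libraries, against 2.72 and 2.69 RPKM in the scramble siRNA libraries. These levels rested on 28 and 26 reads after knockdown and on 175 and 173 reads in the controls. The libraries of each group were close and the groups did not overlap. The ratio of control to knockdown means was 6.39 and the log2 change was -1.38.

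CHSY1, the chondroitin synthase, was the second highest of the 6 in the siRNA libraries. It had 3.51 and 3.95 RPKM after YWHAG knockdown, against 10.6 and 10.9 RPKM with scramble siRNA. Both knockdown libraries lay below both controls, with a ratio of control to knockdown of 2.88 and a log2 change of -1.32. The zinc finger gene ZNF239 had 1.10 and 1.22 RPKM after knockdown, against 4.77 and 3.92 RPKM in the controls. Here the controls differed more from each other than the knockdown libraries did, and the groups again stood apart, with a ratio of 3.76 and a log2 change of -1.31.

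The EP2 receptor gene PTGER2 had 1.04 and 1.25 RPKM after YWHAG knockdown, against 3.40 and 3.98 RPKM with scramble siRNA. DACT2 had nearly the same levels, at 1.11 and 1.02 RPKM after knockdown, against 3.21 and 3.82 RPKM in the controls. For both genes the higher knockdown library lay well under the lower control. The ratios of control to knockdown were 3.23 for PTGER2 and 3.29 for DACT2, and the log2 changes were -1.13 and -1.12. MARVELD1 had the highest level and the narrowest separation, with 5.58 and 5.13 RPKM after knockdown, against 13.0 and 12.1 RPKM in the controls. Its ratio was 2.35 and its log2 change -1.10.

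**Figure D1:**
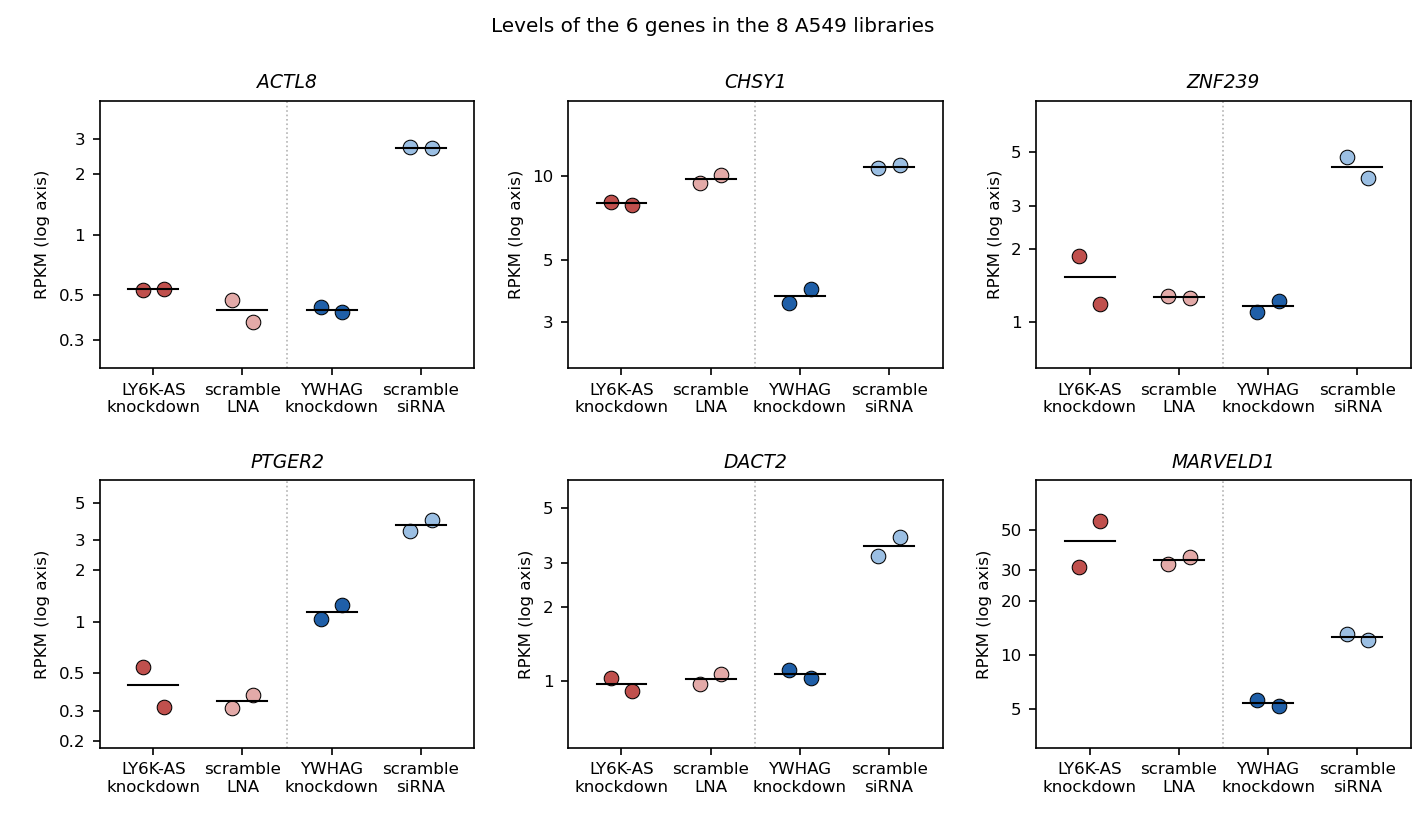
Level of each of the 6 genes in RPKM per merged exon length (log axes with a range for each gene) in the 8 A549 libraries. Points are libraries, black lines are means of 2, and the dotted line parts the LNA table on the left from the siRNA table, which was normalized separately; in the siRNA table the 2 YWHAG knockdown points lie below the 2 scramble siRNA points for every gene, the values the genes were chosen on, while in the LNA table the groups overlap or lie close, apart from 1 high LY6K-AS knockdown library each in ZNF239 (1.87 RPKM) and MARVELD1 (56.0 RPKM).

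The 6 changes ran from -1.38 to -1.10 with a median of -1.22, and over all 13903 genes tested after YWHAG knockdown the median change was -0.05 and 57.6% of genes were lower. Both knockdown libraries lay below both controls for all 6, which the choice of members fixed, and for 30.8% of all genes. No gene passed a limma adjusted p of 0.05 after YWHAG knockdown (0% called), although 2281 had an unadjusted p under 0.05 (16.4%). The voom fit on recovered reads called 0 genes as well. Leaving out YWHAG knockdown library 2 gave 718 calls and leaving out library 1 gave 1 call, with the lone library assumed to vary like the controls. The residual YWHAG level differed between the knockdown libraries, at 13.5 and 4.91 RPKM, and 3 of the 6 genes were lower in the first library and 3 in the second. The change of a gene differed between the 2 knockdown libraries by 0.02 in ACTL8 to 0.14 in PTGER2 and CHSY1, against an SD of 0.43 over all genes for that difference. Choosing genes that were low in both libraries favoured such closeness.

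To place the 6 genes among others, genes were ranked by the lower scramble siRNA level divided by the higher YWHAG knockdown level. Of 8330 genes whose controls both reached the lowest control level of a member, 2.69 RPKM, 18 had a ratio at or above the smallest of a member, 2.17 in MARVELD1, and 14 of the 18 were protein-coding. YWHAG ranked first at 11.6 and ACTL8 second at 6.20. The small nucleolar RNAs SNORA71A, SNORD19 and SNORD69 came next, at 3.67, 3.59 and 3.26. Their genes are short, so such levels rest on few reads, and their read counts are not given here. ZNF239 ranked 6th with 3.22, followed by DACT2 with 2.89, PTGER2 with 2.73 and CHSY1 with 2.69. The other 7 protein-coding genes, chosen by the same values, were TBX3, APOBEC3B, CABLES2, CDC42SE2, HAS3, HENMT1 and CORO2A, with ratios of 2.45 in TBX3 to 2.19 in CORO2A. HAS3 makes hyaluronan, another extracellular sugar chain, and its level was 5.98 and 2.35 RPKM after YWHAG knockdown, against 16.7 and 13.4 RPKM with scramble siRNA. Just outside the range of the 6 lay AL031186.1 at 2.16, SP9 at 2.14 and ANKRD33B at 2.12.

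None of the 6 genes passed the test after LY6K-AS knockdown. Their changes were of mixed sign, 2 lower and 4 higher, with a median of 0.10 and a range of -0.26 to 0.29. The YWHAG changes were larger and all negative through the choice of the genes. The size and sign of the changes thus cannot be compared between the 2 knockdowns. Over the 14662 genes tested the median was 0.0024 and 49.7% were lower. In that comparison 0 genes passed (0% called), 3706 had an unadjusted p under 0.05 (25.3%), and voom called 0. Leaving out LY6K-AS knockdown library 1 gave 7853 calls and leaving out library 2 gave 4612, again with the lone library assumed to vary like the controls. PTGER2 was under the filter of 0.5 RPKM in 2 libraries, so 5 of the 6 were tested and PTGER2 was taken from the fit without a filter. ACTL8 passed the filter only through its knockdown libraries.

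CHSY1 was the one gene of the 6 with both LY6K-AS knockdown libraries below both controls, as were 30.5% of genes tested. It had 8.09 and 7.84 RPKM after LY6K-AS knockdown, against 9.43 and 10.1 RPKM with scramble LNA. The log2 change was -0.26 ± 0.09 (SE, limma adjusted p = 0.179, unadjusted p = 0.0392). The ratio of reads, scaled for depth, was 0.817 with a 95% interval of 0.776 to 0.861, which covers counting error only. Without knockdown library 1 the change was -0.28 and without library 2 it was -0.24. CHSY1 was thus below its controls in both knockdowns, by a log2 difference of -1.32 after YWHAG knockdown and -0.26 after LY6K-AS knockdown.

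ACTL8 was the one gene with both LY6K-AS knockdown libraries above both controls, as were 31.4% of genes tested. Its level was 0.533 and 0.538 RPKM after knockdown, against 0.474 and 0.369 RPKM with scramble LNA. The log2 change was 0.11 ± 0.10 (SE, limma adjusted p = 0.515). Only the knockdown libraries reached the filter of 0.5 RPKM, so ACTL8 was tested because they were the higher ones. In the fit without a filter the change was also 0.11 (limma adjusted p = 0.634). These were 26 and 31 reads against 30 and 21 reads, and the read ratio of 1.26 had a 95% counting interval of 0.851 to 1.88. With a trend on GC content removed the change was -0.03.

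DACT2 had 1.03 and 0.912 RPKM after LY6K-AS knockdown, against 0.969 and 1.06 RPKM with scramble LNA. The groups overlapped, and the log2 change was -0.03 ± 0.10 (SE, limma adjusted p = 0.863). Its read ratio was 0.954 with a 95% counting interval of 0.798 to 1.14, and the read ratio after YWHAG knockdown, by which it was chosen, was 0.304. Without knockdown library 2 the change was 0.01, without scramble LNA library 2 it was 0.0013, and with a trend on GC content removed it was -0.35 (limma adjusted p = 0.240). PTGER2 had 0.541 and 0.314 RPKM after LY6K-AS knockdown, against 0.310 and 0.371 RPKM in the controls, which again overlapped. Its log2 change of 0.09 ± 0.12 (SE, limma adjusted p = 0.751, fit without a filter) rested on 24 to 35 reads per library, with a 95% counting interval of the read ratio of 0.839 to 1.82.

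The remaining pair differed between the LY6K-AS knockdown libraries. ZNF239 had 1.87 and 1.19 RPKM after knockdown, against 1.28 and 1.25 RPKM with scramble LNA, so that library 1 lay above both controls and library 2 below both. Its log2 change was 0.15 ± 0.16 (SE, limma adjusted p = 0.601). Without knockdown library 2 it was 0.34, and without library 1 it was -0.05. MARVELD1 had 31.1 and 56.0 RPKM after knockdown, against 32.3 and 35.5 RPKM in the controls, and here library 2 was the high one. Its log2 change was 0.29 ± 0.30 (SE, limma adjusted p = 0.561). Without knockdown library 1 it was 0.71, and without library 2 it was -0.12. With a trend on GC content removed, ZNF239 was at 0.26 and MARVELD1 at 0.07. The LY6K-AS changes of ZNF239 and MARVELD1 rested on 1 library each.

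**Figure D2:**
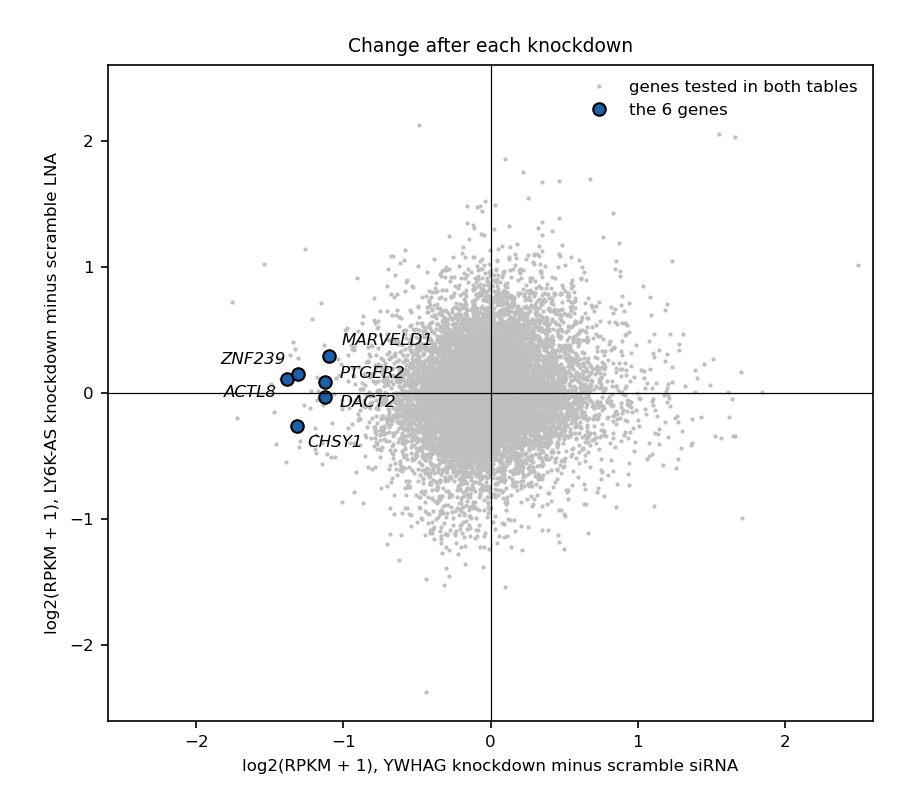
Change in log2(RPKM + 1) after YWHAG knockdown against scramble siRNA (horizontal axis) and after LY6K-AS knockdown against scramble LNA (vertical axis) for the genes tested in both tables (grey; 1 gene lies beyond the axes) and the 6 genes (blue). The 6 sit between -1.38 and -1.10 on the horizontal axis, by which they were chosen, and between -0.26 and 0.29 on the vertical axis.

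Set side by side, the levels of the 6 genes did not follow one pattern over the 4 groups. The LNA and siRNA tables were normalized separately, so levels across them were not tested, and the scramble siRNA libraries enter both the YWHAG comparison and any comparison of the scramble controls. ACTL8, ZNF239 and DACT2 had one high group, scramble siRNA, while YWHAG knockdown lay at the level of the LNA libraries. For ACTL8 the YWHAG knockdown libraries, at 0.413 to 0.435 RPKM, fell inside the LNA libraries' range of 0.369 to 0.538 RPKM, and the scramble siRNA libraries stood at 2.69 to 2.72 RPKM. For DACT2 the knockdown libraries had 1.02 to 1.11 RPKM, the LNA libraries 0.912 to 1.06 RPKM and the scramble siRNA libraries 3.21 to 3.82 RPKM. For ZNF239 the knockdown libraries had 1.10 to 1.22 RPKM, the LNA libraries 1.19 to 1.87 RPKM and the scramble siRNA libraries 3.92 to 4.77 RPKM. Among the other 3 groups the ranges of DACT2 all overlapped. In ACTL8 both LY6K-AS knockdown libraries lay above the other 4 of these libraries, and in ZNF239 YWHAG knockdown lay just under scramble LNA while LY6K-AS knockdown overlapped both.

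PTGER2 had 3 levels in order. It was lowest in the LNA libraries at 0.310 to 0.541 RPKM, followed by YWHAG knockdown at 1.04 to 1.25 RPKM and scramble siRNA at 3.40 to 3.98 RPKM. YWHAG knockdown was thus 3.36 times the scramble LNA mean, and scramble siRNA 10.8 times. CHSY1 had similar levels in both scramble groups, scramble siRNA being 1.10 times scramble LNA, and YWHAG knockdown, at 0.383 times scramble LNA, was below all 6 other libraries. MARVELD1 ran the other way. Its LNA libraries, at 31.1 to 56.0 RPKM, were above scramble siRNA at 12.1 to 13.0 RPKM, and YWHAG knockdown was lowest at 5.13 to 5.58 RPKM.

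Over the 12861 genes tested in both tables, the log2 difference between scramble siRNA and scramble LNA had a median of -0.13 and an SD of 0.76, with 4.12% of genes at 1 or above and 12.6% at -1 or below. The difference was 1.81 in PTGER2, 1.38 in ACTL8, 1.24 in ZNF239 and 1.16 in DACT2. Differences as high were found in 0.964% of genes for PTGER2, 1.97% for ACTL8, 2.58% for ZNF239 and 2.91% for DACT2. They were 0.13 in CHSY1 and -1.36 in MARVELD1. The tables also differ in their mitochondrially encoded reads. These made up 13.99 to 18.2% of all reads in the siRNA libraries and 4.12 to 8.43% in the LNA libraries. The authors divided by another length in each table, but the levels here are all per merged exon length. Whether LNA reads in introns were counted is not given. The part of mitochondrial reads or of intron counting in the levels was not tested. The high scramble siRNA levels were among the values the genes were chosen on.

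**Figure D3:**
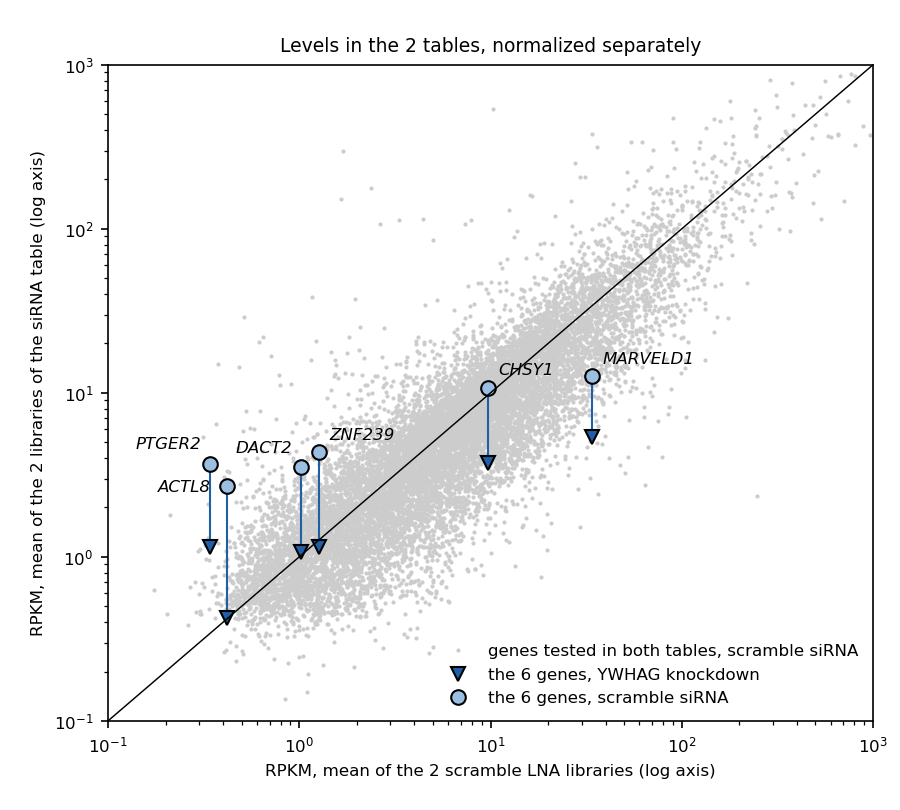
Mean RPKM of 2 libraries in the siRNA table (vertical, log axis) against the mean of the scramble LNA libraries (horizontal, log axis). Grey points are genes tested in both tables at their scramble siRNA level (34 genes lie beyond the axes), and each blue line joins the YWHAG knockdown level (triangle) of a gene to its scramble siRNA level (circle); the triangles of ACTL8, DACT2 and ZNF239 lie on the line of equal levels, the circle of CHSY1 lies near it, and both symbols of MARVELD1 lie below it.

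Genes with a similar pattern were sought by Euclidean distance over the 8 libraries, each gene being centred on its own scramble controls, among 11256 genes. Since YWHAG values enter this distance, it is a description. Among the 6, PTGER2 and DACT2 were closest to each other at 0.241, and MARVELD1 was farthest from the rest at 0.775 to 1.06. The nearest other genes were HENMT1 and COPRS for ACTL8, NETO2 and CABLES2 for CHSY1, and HENMT1 and ANKRD33B for both ZNF239 and PTGER2. They were COPRS and SP9 for DACT2, and RHOU and BMP4 for MARVELD1. Distances to these genes were 0.296 to 0.536, against medians of 1.64 to 1.98 over all genes. HENMT1, which methylates small RNAs, had 2.16 and 1.50 RPKM after YWHAG knockdown, against 5.32 and 4.75 RPKM with scramble siRNA, and 1.99 to 2.72 RPKM in the LNA libraries.

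None of the nearest measured protein-coding genes on either side of the 6 passed the test after YWHAG knockdown. Some were far off, with distances from 18.9 kb for SELENOS beside CHSY1 to 1137 kb for WDR27 beside DACT2. LRRK1, 97.5 kb from CHSY1, had a log2 change of -0.49 ± 0.13 (SE, limma adjusted p = 0.249), and ZNF485, a zinc finger gene 31.8 kb from ZNF239, one of -0.51 ± 0.15 (SE, limma adjusted p = 0.258). NID2, 245 kb from PTGER2, was at 0.40 ± 0.12 (SE) and AVPI1, 25.85 kb from MARVELD1, at 0.43 ± 0.13 (SE). Both went in the opposite direction to the member (limma adjusted p = 0.256 for each). The other 8 neighbours, ARHGEF10L, KLHDC7A, SELENOS, ZNF487, TXNDC16, AFDN, WDR27 and ZFYVE27, had log2 changes of -0.20 to -0.04.

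The partners of the 6 genes in their own pathways were followed in both knockdowns, in 7 lists chosen with earlier results of these data known. No companion passed in either knockdown. Of 116 companions tested after YWHAG knockdown, 17 had an unadjusted p under 0.05 (14.7%, against 16.4% of all genes). Of 114 tested after LY6K-AS knockdown, 21 did (18.4%, against 25.3%). With the spread pooled over the 8 libraries, a fit added after seeing the data, 1 of 112 companions passed after YWHAG knockdown and 0 of 112 after LY6K-AS knockdown, where 214 and 64 genes passed in all.

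In the prostaglandin E2 pathway of PTGER2, 4 of the 10 genes tested after YWHAG knockdown were higher and 6 lower, with a median of -0.12. The other prostaglandin E2 receptors had low levels in the siRNA libraries. PTGER4 had 0.314 and 0.389 RPKM after YWHAG knockdown, against 0.286 and 0.264 RPKM in the controls. PTGER1 did not exceed 0.041 RPKM there and PTGER3 was at 0 in all 4 siRNA libraries, so PTGER2, chosen on its levels there, was the most abundant of the 4 receptors in the siRNA table. It was not so in the LNA table, where PTGER4 had 0.492 and 0.450 RPKM after LY6K-AS knockdown, against 0.543 and 0.430 RPKM with scramble LNA, and PTGER1 had 0.511 and 0.433 RPKM, against 0.186 and 0.230 RPKM. PTGER2 was at 0.310 to 0.541 RPKM in those libraries. PTGS2, the inducible cyclooxygenase, had 46.2 and 53.7 RPKM after YWHAG knockdown, against 90.7 and 80.3 RPKM with scramble siRNA, a log2 change of -0.77 ± 0.15 (SE, limma adjusted p = 0.194). PTGES, which converts its product to prostaglandin E2, had 16.5 and 4.30 RPKM after knockdown, against 30.2 and 33.1 RPKM, a change of -1.76 ± 0.56 (SE, limma adjusted p = 0.270). For both genes the knockdown libraries lay below the controls, with PTGES uneven between them. PTGR2, a prostaglandin reductase, was at -0.44.

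After LY6K-AS knockdown 6 of the 10 were higher and 4 lower, with a median of 0.15. PTGES had 84.4 and 59.7 RPKM after LY6K-AS knockdown, against 41.6 and 44.0 RPKM with scramble LNA, a log2 change of 0.72 ± 0.19 (SE, limma adjusted p = 0.136). That was the opposite direction to YWHAG knockdown, and the difference between the knockdowns was not tested. PTGES3 was at -0.53 and the prostaglandin exporter ABCC4 at -0.39. Downstream of EP2, the cyclic AMP list held 27 tested genes after YWHAG knockdown, 11 higher and 16 lower with a median of -0.05. The adenylate cyclase gene ADCY6 was at 0.66, the phosphodiesterase gene PDE4B at -0.50 and the growth factor gene AREG at -0.52. After LY6K-AS knockdown 13 of 26 were higher and 13 lower, with a median of -0.01. CRTC1, a coactivator of CREB, was at 0.55.

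In the chondroitin and dermatan sulfate pathway of CHSY1, CHPF was higher after both knockdowns. CHPF encodes the chondroitin polymerizing factor, which works in a complex with CHSY1. It had 9.54 and 9.16 RPKM after YWHAG knockdown, against 2.98 and 3.86 RPKM with scramble siRNA, and 28.1 and 37.4 RPKM after LY6K-AS knockdown, against 14.6 and 15.9 RPKM with scramble LNA. The groups stood apart in both tables, as knockdown libraries above both controls did for 20.4% of genes after YWHAG knockdown. The log2 changes were 1.24 ± 0.15 (SE, limma adjusted p = 0.130) and 1.04 ± 0.16 (SE, limma adjusted p = 0.103), so neither passed. With the pooled spread the limma adjusted p was 0.0263 after YWHAG knockdown, the one companion past the threshold, and 0.0549 after LY6K-AS knockdown. The level of CHSY1 was thus below its controls where that of CHPF was above them. CHSY3, the closest paralog, did not exceed 0.150 RPKM in any library. Of the whole list, 10 genes were higher and 10 lower after YWHAG knockdown with a median of -0.01, and 14 of 19 were higher after LY6K-AS knockdown with a median of 0.22. The linker sugar transferase B3GAT3, at 0.42, was another of the 6 higher genes with an unadjusted p under 0.05 after LY6K-AS knockdown, and the xylose kinase FAM20B, at -0.50, the lower one.

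**Figure D4:**
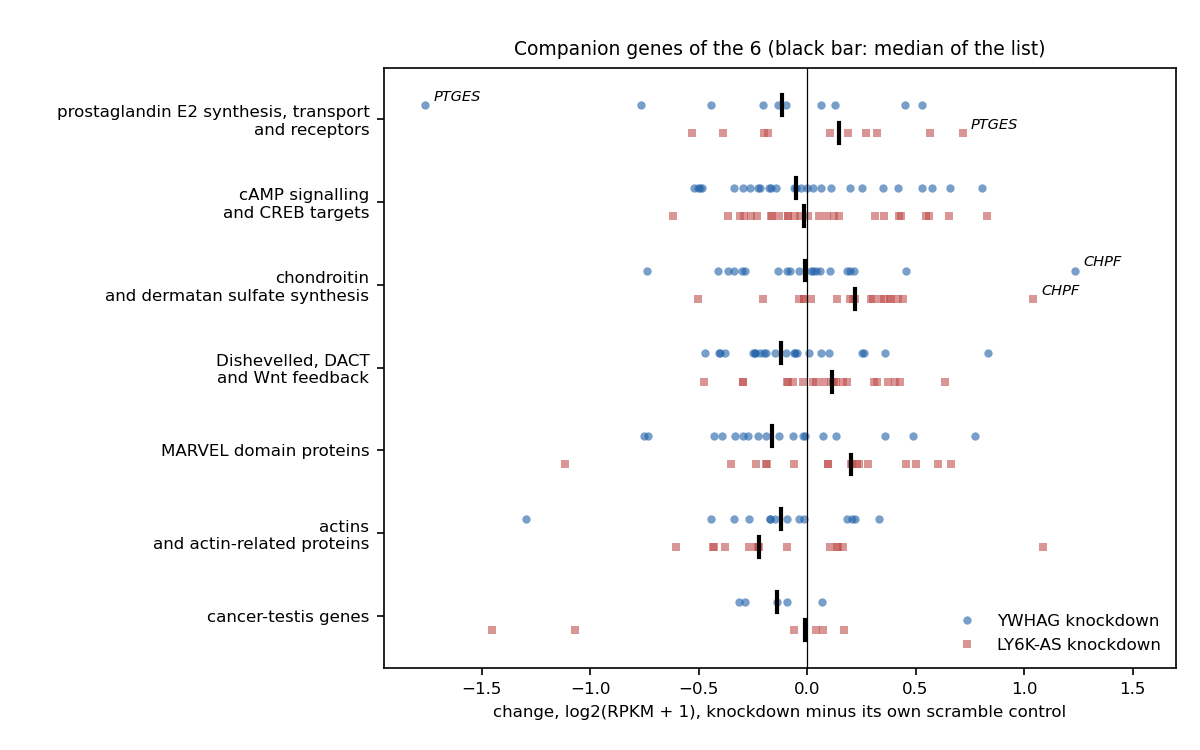
Change in log2(RPKM + 1), knockdown minus its own scramble control, of every tested gene in the 7 companion lists after YWHAG knockdown (blue circles) and LY6K-AS knockdown (red squares); the 6 genes themselves are left out and black bars are list medians. CHPF lies at 1.24 and 1.04, and PTGES at -1.76 after YWHAG knockdown and 0.72 after LY6K-AS knockdown.

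Around DACT2, 7 of 22 tested genes of the Dishevelled and Wnt feedback list were higher and 15 lower after YWHAG knockdown, with a median of -0.12. The ubiquitin ligase gene ZNRF3 was at -0.41, APC, part of the complex that degrades beta-catenin, at -0.47, and NKD1, which binds Dishevelled, at 0.83. After LY6K-AS knockdown 15 of 22 were higher, with a median of 0.11. The Dishevelled gene DVL1 had 57.1 and 62.9 RPKM after LY6K-AS knockdown, against 37.9 and 38.5 RPKM with scramble LNA, a log2 change of 0.64 ± 0.09 (SE, limma adjusted p = 0.103). The Wnt inhibitor gene DKK1 was at 0.43. The paralogs DACT1 and DACT3 did not exceed 0.179 RPKM in any library, so DACT2 was the most abundant of its family.

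Among MARVEL domain genes, 5 of 18 tested were higher and 13 lower after YWHAG knockdown, with a median of -0.16. SYNGR4, a synaptogyrin, had 0.863 and 0.645 RPKM, against 2.01 and 1.90 RPKM with scramble siRNA, a log2 change of -0.75 ± 0.13 (SE, limma adjusted p = 0.180). CMTM4, of the chemokine-like factor family, was at -0.73 and CKLF at -0.43. After LY6K-AS knockdown 11 of 17 were higher with a median of 0.20, SYNGR3 at 0.60 and SYNGR2 at 0.50 among them. The paralogs MARVELD2, MARVELD3 and occludin (OCLN) stayed under 1.13 RPKM in every library, while MARVELD1 was at 5.13 RPKM or more.

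Among actins and actin-related genes, 4 of 14 were higher and 10 lower after YWHAG knockdown, with a median of -0.12 and 0 at an unadjusted p under 0.05. The changes ran from -1.30 in ACTR2 to 0.33 in ACTA2. After LY6K-AS knockdown 5 were higher and 9 lower with a median of -0.22. ACTL6A, an actin-related subunit of chromatin remodelling complexes, was at -0.60, ACTR6 at -0.44 and the smooth muscle actin gene ACTA2 at 1.09. Of the paralogs of ACTL8, ACTL9 was at 0 in all 8 libraries and ACTL6B, ACTL7A and ACTL10 did not exceed 0.323 RPKM. Of 35 other cancer-testis genes, 5 were in the tested range after YWHAG knockdown, 1 higher and 4 lower with a median of -0.14, and 12 were at 0 in all 4 LNA libraries. Among 6 tested after LY6K-AS knockdown, 3 were lower, and the mitotic kinase genes PBK and TTK were at -1.45 and -1.07 (limma adjusted p = 0.111 and 0.130). Of the 14-3-3 genes other than YWHAG, SFN, which encodes 14-3-3 sigma, was at -0.71 after YWHAG knockdown and at 0.85 after LY6K-AS knockdown (limma adjusted p = 0.198 and 0.103). With the pooled spread SFN passed in both, in opposite directions (limma adjusted p = 0.0456 and 0.0461).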

How the data were processed

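RNA of 8 A549 libraries was deposited by the authors as RPKM in 2 tables, one for the LNA and one for the siRNA libraries. Per the submitters' processing notes, hg38 was the build and STAR, featureCounts, Subread and Picard were the tools, without versions or settings. Whether strand was used in counting is not given in those sources. Of 66206 identifiers in each table, 57055 matched GENCODE 29. The deposited RPKM of the siRNA table gave whole reads for 100% of low values with merged exon length as divisor. The LNA table did so with gene end minus start, introns included, within a tolerance of 0.05 reads. LNA values were therefore rescaled to merged exon length, and unmatched LNA rows were left out of tests. Whether LNA reads in introns were counted is not given. Matched genes of another identifier version, CHSY1 among them, used the lengths of GENCODE 29. A floor of 3 reads was worth 0.0868 to 0.115 RPM.

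Within each table, limma 3.58.1 under R 4.3.3 fitted log2(RPKM + 1) of knockdown and scramble libraries with an intensity trend. Genes needed 0.5 RPKM or more in 2 of the 4 libraries. Tests were two-sided, p-values were adjusted after Benjamini and Hochberg over all genes tested, and the threshold was 0.05. The script was tested on simulated data. An exact permutation test of 2 against 2 libraries cannot go below p = 0.333. The members and lists were chosen with earlier results of these data known. Named genes were the 6 and the targeted genes, and in each companion list at most 3 per knockdown with the smallest p. Others were paralogs and receptors by role, the 2 nearest genes in pattern, and the nearest measured protein-coding genes on either side. Genes named from the ratio ranking, and ACTR2, were chosen by their values. Counting intervals on read ratios are 95% intervals conditional on the sum of reads, and they cover counting error only, reads here having no molecular identifiers. Scramble siRNA columns carry the numbers 2 and 3 where the labels have 1 and 2, which places them in the group and no further. GC content was taken from the transcripts of each gene in place of merged exons. Promoters are RefSeq's for GRCh38.p14.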

Additional observations from a re-analysis of the deposited data

How the results depend on the processing

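The count of 0 genes past the threshold in either knockdown held with pseudocounts of 0.1 and 0.5, without a filter, with medians aligned, with the GC trend removed and with voom, and for LY6K-AS also with the values as deposited. Without 1 library the count ran between 0 and 7853 after LY6K-AS knockdown and between 0 and 718 after YWHAG knockdown. With the spread pooled over the 8 libraries, chosen after seeing the data, it was 64 and 214. The cause was not tested. In the LNA table the fit with the replicate block also called 0 genes, the labels sharing only a number. For the siRNA table no paired analysis was possible because the scramble siRNA columns, numbered 2 and 3, could not be tied to the labelled samples 1 and 2.

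Of 60 recomputed LY6K-AS changes of the 6 genes, 5 turned direction. With the GC trend removed, ACTL8 was at -0.034, DACT2 at -0.35, MARVELD1 at 0.071, ZNF239 at 0.26 and CHSY1 at -0.19. ACTL8 reached 0.34 with voom, and CHSY1 was at -0.11 with the values as deposited. Leaving out 1 library gave -0.051 to 0.34 for ZNF239, -0.12 to 0.71 for MARVELD1, -0.30 to -0.22 for CHSY1 and -0.075 to 0.012 for DACT2. The YWHAG changes were negative under every alternative run, which the choice of members all but fixed, and ACTL8 reached -2.59 with voom. PTGER2 had 24 to 35 reads and ACTL8 21 to 31 reads per LNA library. The 95% counting intervals of their LY6K-AS read ratios were 0.839 to 1.82 and 0.851 to 1.88. Ratios within an interval, no change included, could not be told apart by these reads.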

Other observations

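HENMT1, CORO2A and APOBEC3B, singled out after their values were seen, resembled ACTL8, ZNF239 and DACT2 in that scramble siRNA was the high group. APOBEC3B, a cytidine deaminase of single-stranded DNA, had 3.22 and 2.91 RPKM after YWHAG knockdown, against 8.54 and 7.45 RPKM with scramble siRNA, and its 4 LNA libraries ranged from 2.77 to 4.89 RPKM. CORO2A, a coronin, had 1.60 and 1.30 RPKM after YWHAG knockdown, against 3.78 and 3.51 RPKM with scramble siRNA, and 1.43 to 2.38 RPKM in the LNA libraries. TBX3, a T-box transcription factor, had 4.69 and 6.95 RPKM after YWHAG knockdown, against 17.1 and 17.5 RPKM with scramble siRNA, and 9.16 to 13.8 RPKM in the LNA libraries, which lay between those groups. Levels across the tables were not tested.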
